A study of Mus musculus with 28 samples.

Results

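The Gadd45 family of the mouse consists of 3 genes, Gadd45a, Gadd45b and Gadd45g, and was read from all probes whose RefSeq accession belongs to one of them. Each gene had 1 probe with 1 spot per array, so the family is 3 of 20145 genes named on the array and 3 of 55681 non-control probes. The probes were A_51_P296608 for Gadd45a (chromosome 6, 67035096 to 67037407), A_52_P1197913 for Gadd45b (chromosome 10, 80930091 to 80932204) and A_51_P315904 for Gadd45g (chromosome 13, 51846675 to 51848475), with gene positions in the mouse build GRCm38.p6. The part of each transcript that a probe reads is not given in the sources used here.

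Liver RNA of 28 male mice was hybridised to 1-colour Agilent arrays, 1 array per animal. CD-1 mice, an outbred stock, ate a diet with 1500 ppm phenobarbital for 7 days, against 0 ppm for 7 days in their controls (n = 4 each). hCAR/hPXR mice, a line generally known as humanised for the receptors CAR and PXR, whose alleles the labels do not describe, ate 1000 ppm for 7 days, against 0 ppm (n = 7 each). C3H/HeNCrlCrlj mice, called C3H here, ate 500 ppm for 27 weeks, against 0 ppm, and every C3H animal of both groups had first been injected once with 90 mg/kg diethylnitrosamine, a liver carcinogen (n = 3 each). Phenobarbital is a barbiturate that promotes liver tumours in mice and activates CAR, the nuclear receptor encoded by Nr1i3. Dose, duration, strain and carcinogen differ together between the 3 experiments, and the labels do not say whether the C3H tissue was tumour or surrounding liver.

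GADD45 proteins are small, acidic, mostly nuclear proteins without known enzyme activity. They act by binding partners: the kinase MAP3K4 (MTK1) upstream of p38 and JNK, the CDK1 and cyclin B1 complex of the G2/M transition, the p21 protein and the replication clamp PCNA. Gadd45a was found as a gene induced by DNA damage and growth arrest and is a textbook p53 target. Gadd45b was found as a myeloid differentiation and immediate-early gene. It is induced by NF-kB and TGF-beta signalling, and in mouse liver it is known as a gene induced by CAR activators and during regeneration. Gadd45g was found as a cytokine-induced gene. Binding of GADD45B to the JNK kinase MAP2K7 is known to limit JNK activity.

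The promoters are shown because the 3 genes, which share a protein family, differed in their response to the same treatment. Each sequence runs 5′ to 3′ on the strand of the gene from 250 bases before to 50 bases after the start site, from RefSeq on GRCm38.p6, at chr6:67037358-67037657 (minus strand) for Gadd45a, chr10:80929841-80930140 (plus strand) for Gadd45b and chr13:51846425-51846724 (plus strand) for Gadd45g. Capitals mark matches, on either strand, to CCAAT, to the octamer ATTTGCAT, to CACGTG and to TATAAA.
Gadd45a: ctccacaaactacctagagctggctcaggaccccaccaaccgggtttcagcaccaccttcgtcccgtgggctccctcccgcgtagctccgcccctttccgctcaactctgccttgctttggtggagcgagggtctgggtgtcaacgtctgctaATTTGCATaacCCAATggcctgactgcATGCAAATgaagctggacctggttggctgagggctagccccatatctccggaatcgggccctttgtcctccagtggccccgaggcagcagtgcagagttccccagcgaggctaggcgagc
Gadd45b: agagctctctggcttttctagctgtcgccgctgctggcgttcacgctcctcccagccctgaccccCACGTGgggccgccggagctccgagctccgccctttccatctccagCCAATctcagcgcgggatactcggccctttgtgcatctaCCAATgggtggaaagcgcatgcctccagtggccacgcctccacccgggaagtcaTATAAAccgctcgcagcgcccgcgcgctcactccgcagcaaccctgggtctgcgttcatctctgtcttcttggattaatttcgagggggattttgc
Gadd45g: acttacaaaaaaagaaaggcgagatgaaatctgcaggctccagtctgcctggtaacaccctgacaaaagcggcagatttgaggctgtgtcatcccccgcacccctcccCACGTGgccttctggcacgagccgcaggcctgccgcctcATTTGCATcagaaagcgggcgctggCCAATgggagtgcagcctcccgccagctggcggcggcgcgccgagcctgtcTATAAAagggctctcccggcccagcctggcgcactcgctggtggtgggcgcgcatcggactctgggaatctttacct
CCAAT occurred in all 3 promoters and in 37.4% of 32851 mouse promoters of the same length. The octamer, in 1.74% of all promoters, occurred in those of Gadd45a and Gadd45g, with a match on each strand in Gadd45a. CACGTG, in 7.15% of all promoters, and TATAAA, in 13.6%, occurred in those of Gadd45b and Gadd45g. The TATAAA match began 46 bases before the start site in Gadd45b and 27 bases before it in Gadd45g. AGGTCA, the core hexamer bound by nuclear receptors such as CAR, occurred in 16.3% of all promoters and in none of these 3 windows. No matches overlapped each other, and the motifs were chosen after the 3 sequences had been read. GC content was 61% in Gadd45a, 62% in Gadd45b and 62.3% in Gadd45g.

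Values are log2 signals relative to the 75th percentile of the animal's own array, so that 0 is the level which 1 in 4 probes exceeded. The scanner software marked the 3 probes as well above background on all 28 arrays. Probes well above background made up 46.2% to 70.7% of those on CD-1 arrays, 46.7% to 58.6% on hCAR/hPXR arrays and 41.3% to 46.0% on C3H arrays. The arrays lay on 5 slides. CD-1 phenobarbital animals lay on a slide of their own and CD-1 controls on another, so phenobarbital and slide cannot be told apart in CD-1. In hCAR/hPXR mice, phenobarbital animal 1 shared a slide with the 7 controls, and animals 2 to 7 lay on another. All C3H arrays shared 1 slide. Cyp2b10, the P450 gene used as the standard sign of CAR activation, was 101-fold higher with phenobarbital in CD-1, 22.4-fold higher in hCAR/hPXR and 53.3-fold higher in C3H mice, with no overlap between groups in any strain. Calls of cell type markers are to be read against the shares of all probes called. These were 1.81% higher and 6.07% lower in CD-1, 33.9% and 22.1% in hCAR/hPXR and 7.21% and 6.87% in C3H mice. All 6 hepatocyte markers examined (Alb, Apoa1, Ttr, Cps1, Serpina1c and Tat) were above background in every group. Their mean log2 level spanned 5.96 to 7.20 in phenobarbital and 7.33 to 8.03 in control CD-1 livers, with 3 of 6 called lower. It spanned 8.07 to 8.47 in phenobarbital and 8.22 to 8.52 in control hCAR/hPXR livers, with none called, and 7.54 to 8.69 in phenobarbital and 9.22 to 9.31 in control C3H livers, with 5 of 6 called lower. Of 5 neutrophil markers, the mean level spanned -0.05 to 0.47 in phenobarbital and -1.36 to -1.02 in control CD-1 livers, with 1 called higher, S100a8 (6.67), beside S100a9 (0.62), Ngp (0.37) and Camp (-0.33), which were not called, while Mpo was not above background on any CD-1 array. In hCAR/hPXR mice 1 of 3 tested neutrophil markers was called lower, Camp (-0.51), and in C3H mice none of 3 was called. Of 5 Kupffer cell and macrophage markers 3 were called higher in hCAR/hPXR mice, with mean levels of 3.79 to 4.80 in phenobarbital and 3.52 to 3.96 in control animals. None of these markers was called in CD-1 or C3H mice. Lymphocyte markers were called for 1 of 5 tested, lower, in CD-1 mice, for 1 higher and 1 lower of 4 in hCAR/hPXR mice and for none of 2 in C3H mice, and Cd8a and Ms4a1 were not above background on any C3H array. Endothelial, stellate and bile duct lists had no call in CD-1 mice, among 5, 4 and 4 markers tested. In hCAR/hPXR mice 2 of 6 endothelial markers were called higher and 1 lower. There, 1 of 6 stellate markers was called higher and 1 lower, and 2 of 3 bile duct markers higher. In C3H mice 1 of 6 endothelial markers was called higher and 1 lower, none of 5 stellate markers was called, and 1 of 3 bile duct markers was called higher and 1 lower. The part of these shifts in the results that follow was not tested.

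Gadd45b, the member known for induction through CAR, was higher with phenobarbital in all 3 strains, by 4.18-fold in CD-1, 8.30-fold in hCAR/hPXR and 7.94-fold in C3H mice. In CD-1 mice it stood at 1.97, 3.28, 2.54 and 2.95 in the 4 phenobarbital animals, against 1.08, 0.37, 0.56 and 0.48 in the 4 controls. The groups did not overlap, and the lowest phenobarbital animal exceeded the highest control by 0.89. That control, animal 1, had the dimmest CD-1 array, with a 75th percentile of 37.8 and 46.2% of probes well above background. Its processed Gadd45b signal, 79.5, was the lowest of the 4 controls, so its place as highest comes from the scaling. The change was 2.06 ± 0.32 on the log2 scale (SE, n = 4 per group, limma adjusted p = 0.00235). Its size depended on the processing: over the other settings run with all animals it went from 1.38 to 3.00, beside 2.17 to 3.00 in C3H mice. Of 32194 probes tested in CD-1 mice 7.88% were called at an adjusted p below 0.05 (1.81% higher and 6.07% lower), beside 2 of the 3 family members. Because the RNA came from liver tissue and not from sorted cells, a change in the number of cells of a type and a change in RNA per cell cannot be told apart. This holds here and in every result below.

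Gadd45b in hCAR/hPXR mice spanned 2.33 to 3.22 with a median of 2.98 in the 7 phenobarbital animals, against -0.47 to 0.29 with a median of -0.13 in the 7 controls. Every phenobarbital animal lay at least 2.04 above every control, and each group's SD was 0.30 or less. The change was 3.05 ± 0.15 (SE, n = 7 per group, limma adjusted p = 4.66e-09), and 0.255% of the 25910 probes tested in this strain moved further in either direction. Here 56.0% of probes were called (33.9% higher and 22.1% lower), so that 3 called members of 3 say little by their number. Phenobarbital animal 1 had the lowest Gadd45b value of its group, 2.33. With slide as a block, where the contrast rests on that animal against the 7 controls, the change was 2.46 (limma adjusted p = 0.000113), and on the control slide alone it was 2.46 (adjusted p = 0.00591), values that describe that 1 animal. Without that animal it was 3.15, a setting added after seeing the data.

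In C3H mice, Gadd45b read 2.16, 2.55 and 3.28 in the 3 phenobarbital animals, against -1.09, 0.60 and -0.48 in the 3 controls. The groups were apart by 1.56 at their nearest animals, although the controls differed among themselves by more than in the other strains. The change was 2.99 ± 0.47 (SE, n = 3 per group, limma adjusted p = 0.0147), in a comparison where 14.1% of 23165 probes were called (7.21% higher and 6.87% lower) and 2 of 3 members were. The adjusted p was 0.0665 without control animal 3 (change 2.91), 0.0563 without phenobarbital animal 2 (change 3.05) and 0.0524 when no filter on dim probes was used (change 2.99), so the size held while the call did not.

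**Figure D1:**
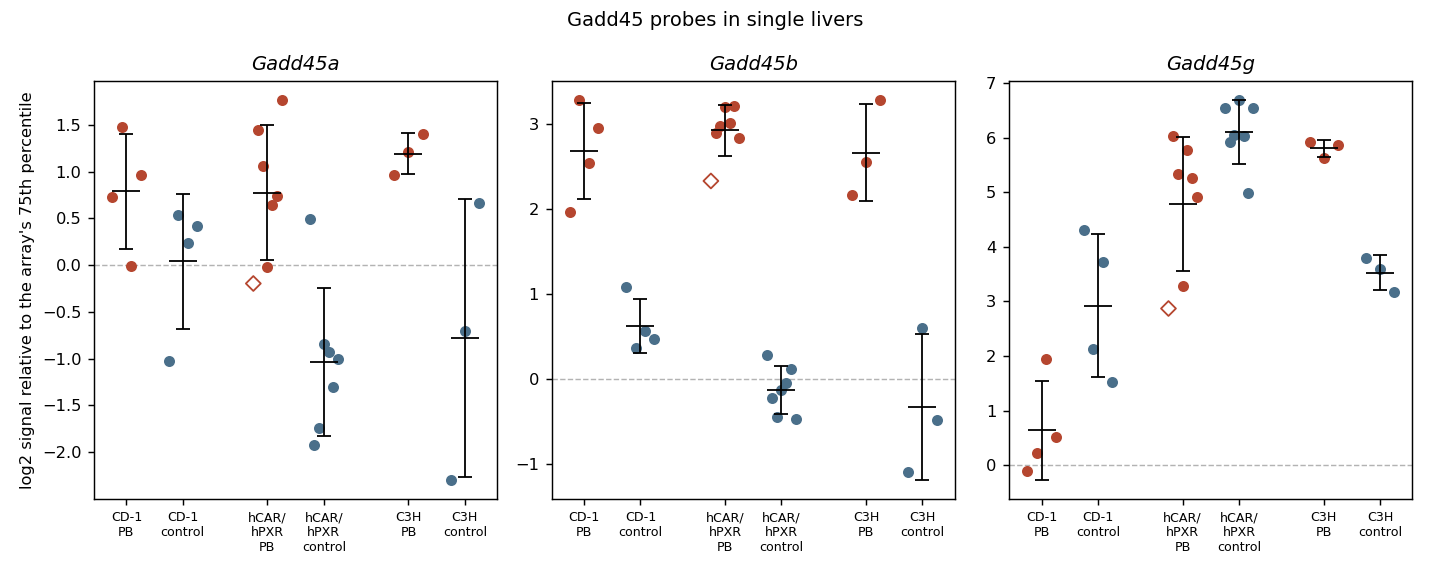
Each point is 1 animal, with the log2 signal relative to the 75th percentile of its array on the vertical axis, phenobarbital (PB) in red and control in blue, and black bars giving the group mean and SD. The open diamond marks the hCAR/hPXR phenobarbital animal on the control slide. Gadd45b separates phenobarbital from control animals in all 3 strains, whereas Gadd45g lies lower with phenobarbital in CD-1 and hCAR/hPXR and higher in C3H, where it spans 5.62 to 5.93 with phenobarbital and 3.17 to 3.80 in controls.

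Gadd45a, the p53-responsive member, passed the test in hCAR/hPXR mice, where it was 3.52-fold higher, and missed it in CD-1 and C3H mice. Its values in hCAR/hPXR mice spanned -0.20 to 1.77 with a median of 0.74 in phenobarbital animals, against -1.93 to 0.49 with a median of -1.01 in controls. The groups overlapped: 5 of 7 phenobarbital animals lay above all controls, and control animal 1, at 0.49, was the highest control. The change was 1.82 ± 0.37 (SE, n = 7 per group, limma adjusted p = 0.000868). With slide as a block it was 0.84 ± 0.70 (limma adjusted p = 0.639), which ended the call, and on the control slide alone 0.84 (adjusted p = 0.661), both with phenobarbital animal 1 as the only one on its side. Without phenobarbital animal 1, the change was 1.98 (limma adjusted p = 0.00042).

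In CD-1 mice Gadd45a read 0.72, 1.47, -0.01 and 0.97 in phenobarbital animals, against -1.03, 0.53, 0.24 and 0.42 in controls. The groups overlapped: phenobarbital animals 1, 2 and 4 lay above all controls and animal 3 below 3 of them. The difference was 0.75 ± 0.40, with a 95% interval of -0.13 to 1.62 (n = 4 per group, limma adjusted p = 0.248), and it was 0.39 without control animal 1. In C3H mice it read 0.96, 1.21 and 1.41 in phenobarbital animals, against -2.30, -0.71 and 0.67 in controls. The groups did not overlap, and the nearest animals were 0.29 apart. The controls spread over more than the difference between the group means, with SDs of 0.22 in phenobarbital and 1.48 in control animals. The difference was 1.97 ± 0.68, with a 95% interval of 0.34 to 3.60 (n = 3 per group, limma adjusted p = 0.0973). It was 1.21 without control animal 1 and 2.70 without control animal 3, the lowest and highest values when 1 animal was left out. It passed with another background correction, normexp, at 1.14 (adjusted p = 0.0449), and when all 28 arrays shared 1 estimate of the spread (adjusted p = 0.0258).

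Gadd45g, the cytokine-inducible member, was 4.86-fold lower with phenobarbital in CD-1 and 2.51-fold lower in hCAR/hPXR mice, but 4.85-fold higher in C3H mice. In C3H mice it stood at 5.93, 5.62 and 5.86 in phenobarbital animals, against 3.80, 3.60 and 3.17 in controls. These were tight groups, 1.82 apart at their nearest animals. The change was 2.28 ± 0.19 (SE, n = 3 per group, limma adjusted p = 0.00224), and it passed under every other setting run and without each animal in turn, at 2.10 to 2.42.

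In CD-1 mice Gadd45g read -0.12, 0.22, 1.94 and 0.51 in phenobarbital animals, against 4.31, 2.13, 3.72 and 1.52 in controls. Phenobarbital animals 1, 2 and 4 lay below all controls, while animal 3 lay above control 4. The change was -2.28 ± 0.60 (SE, n = 4 per group, limma adjusted p = 0.0370). That call was lost without control animal 1 (adjusted p = 0.0654, change -1.82) or control animal 3 (adjusted p = 0.110, change -2.02). It was lost, too, without phenobarbital animal 1 (adjusted p = 0.124, change -2.03), animal 2 (adjusted p = 0.105, change -2.14) or animal 4 (adjusted p = 0.0906, change -2.24). The sign stayed negative in every one of these fits.

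The Gadd45g values of hCAR/hPXR mice spanned 2.87 to 6.03 with a median of 5.26 in phenobarbital animals, against 4.98 to 6.69 with a median of 6.04 in controls. The groups overlapped: phenobarbital animals 1, 4 and 7, at 2.87, 3.29 and 4.91, lay below all controls, and the other 4 lay among them. The change was -1.33 ± 0.46 (SE, n = 7 per group, limma adjusted p = 0.0250). Without phenobarbital animal 4 it was -1.08 (adjusted p = 0.0533). With slide as a block, and on the control slide alone, it was -3.24 (limma adjusted p = 0.0465 and 0.0348), but there the contrast rests on 1 phenobarbital animal, number 1, which had the lowest Gadd45g value of its group, so that it says nothing of how stable the call is. Without phenobarbital animal 1 the change was -1.01 (limma adjusted p = 0.0419).

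**Figure D2:**
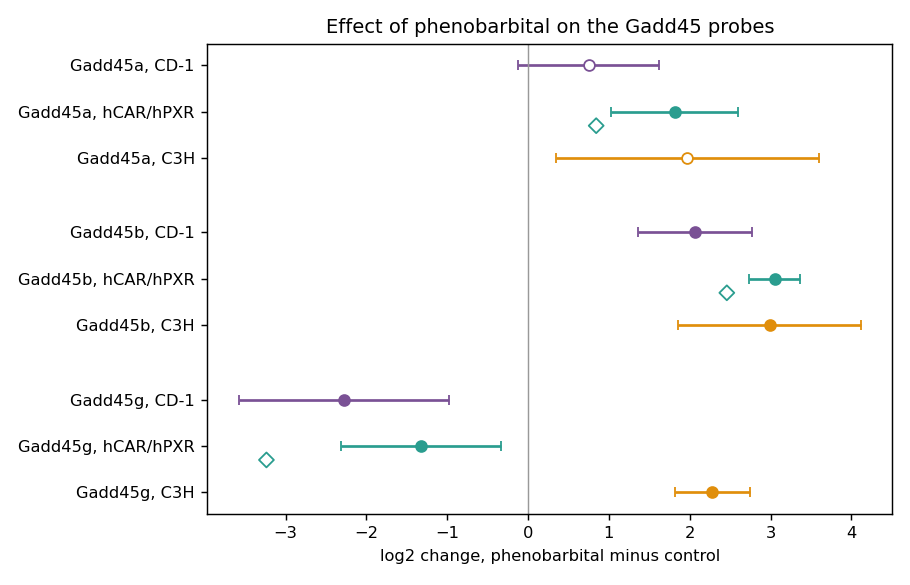
The log2 change, phenobarbital minus control, is drawn on the horizontal axis with its 95% interval for each Gadd45 probe in each strain. Filled circles passed the limma test at an adjusted p of 0.05, open circles did not, and diamonds give the hCAR/hPXR value with slide as a block. The 3 Gadd45b changes lie between 2.06 and 3.05, while Gadd45g runs from -2.28 in CD-1 to 2.28 in C3H.

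The response of Gadd45g differed between experiments. The phenobarbital effect in C3H minus that in CD-1 mice was 4.56 ± 0.94 on the log2 scale (SE, limma interaction, adjusted p = 0.00206), and in C3H minus hCAR/hPXR mice 3.60 ± 0.84 (adjusted p = 0.00709). Both passed without each animal in turn. The first also passed under every other setting run, at 3.91 to 5.12, and so did the second, with 3.60 as its lowest value. The highest value of the second, 5.52, came from a slide block added after seeing the data. There the hCAR/hPXR side rests on phenobarbital animal 1, so that value says nothing of stability. Of all probes tested, 8.85% were called higher and 5.17% lower for C3H minus CD-1, and 3.92% higher and 5.21% lower for C3H minus hCAR/hPXR, beside 1 of 3 members, called higher, in each. Between hCAR/hPXR and CD-1 mice, where 18.1% of probes were called higher and 8.33% lower, none of the 3 members passed, and the Gadd45g effects differed by 0.96 with an interval of -0.62 to 2.54 (limma adjusted p = 0.369).

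For Gadd45b no difference between experiments passed. The effect in hCAR/hPXR minus that in CD-1 mice was 0.99 ± 0.39, with an interval of 0.20 to 1.78 (limma adjusted p = 0.0585). This value turned to -0.39 under quantile normalization and passed under normexp, at 1.31 (adjusted p = 0.000398). It also passed without CD-1 control animal 2 (1.07, adjusted p = 0.0480), CD-1 phenobarbital animal 2 (1.19, adjusted p = 0.0300), hCAR/hPXR control animal 1 (1.06, adjusted p = 0.0485) or hCAR/hPXR phenobarbital animal 1 (1.09, adjusted p = 0.0355). Between C3H and CD-1 mice the Gadd45b effects differed by 0.93, with an interval of -0.04 to 1.89 (limma adjusted p = 0.185), and this passed without C3H control animal 2, at 1.39 (adjusted p = 0.0434). Between C3H and hCAR/hPXR mice they differed by -0.06, with an interval of -0.92 to 0.80 (adjusted p = 0.944).

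For Gadd45a the differences were 1.07 for hCAR/hPXR minus CD-1 (interval -0.30 to 2.44), 1.22 for C3H minus CD-1 (interval -0.45 to 2.89) and 0.16 for C3H minus hCAR/hPXR (interval -1.33 to 1.65). None passed (limma adjusted p = 0.239, 0.315 and 0.918), and the intervals leave room for differences of over 1 log2 unit.

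The members were then set against each other within animals, a comparison added after seeing the data. For each pair the log2 difference between probes was taken in every animal and compared between phenobarbital and control by a two-sided exact permutation test, with 9 tests adjusted together. In hCAR/hPXR mice the change of Gadd45b exceeded that of Gadd45g by 4.38 and that of Gadd45a exceeded that of Gadd45g by 3.14, with 7 of 7 phenobarbital animals above all 7 controls in both (exact p = 0.000583, the smallest this design allows, adjusted p = 0.00262). The change of Gadd45b exceeded that of Gadd45a by 1.24, with 5 of 7 above (exact p = 0.00641, adjusted p = 0.0192). Since Gadd45b lay above all controls in all 7 phenobarbital animals, it did so too in those whose Gadd45g lay among the controls, which says nothing of how the members relate. The permutations did not take slide into account, although most phenobarbital animals lay on another slide than the controls.

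In CD-1 mice the change of Gadd45b exceeded that of Gadd45g by 4.34, with 4 of 4 phenobarbital animals above all controls (exact p = 0.0286, the smallest this design allows, adjusted p = 0.0643). The change of Gadd45a exceeded that of Gadd45g by 3.03 (exact p = 0.0857, adjusted p = 0.154) and that of Gadd45b exceeded that of Gadd45a by 1.32 (exact p = 0.114, adjusted p = 0.171). In C3H mice, where an exact p cannot fall below 0.1, the change of Gadd45b exceeded that of Gadd45g by 0.71 (exact p = 0.5) and that of Gadd45a by 1.02 (exact p = 0.3), and Gadd45a minus Gadd45g changed by -0.31 (exact p = 0.7).

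**Figure D3:**
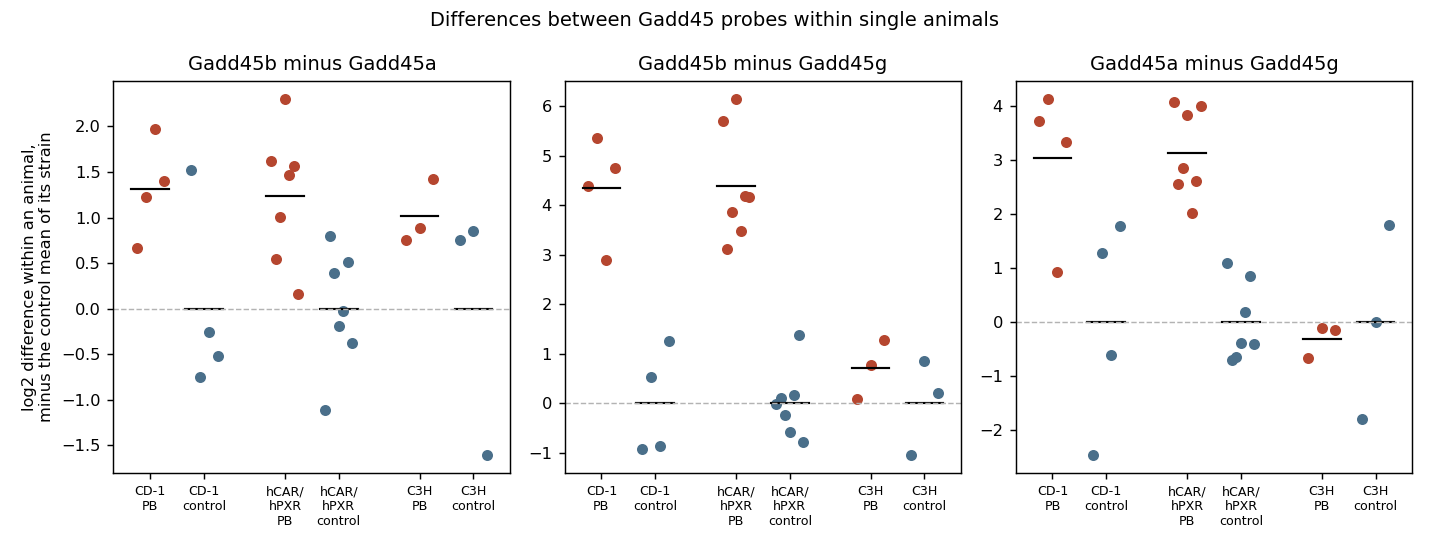
Each point is the log2 difference between 2 Gadd45 probes within 1 animal, after subtraction of the mean of that difference in the controls of its strain, with phenobarbital (PB) in red, control in blue and black lines at group means. Differences to Gadd45g rise clear of the controls in all 7 hCAR/hPXR phenobarbital animals, with mean changes of 4.38 for Gadd45b and 3.14 for Gadd45a, and stay within 1 of the control mean on average in C3H mice.

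Levels of each probe were ordered over the 6 groups as a description, since strain, experiment and slide coincide. Gadd45b averaged 2.93 ± 0.30 in hCAR/hPXR, 2.69 ± 0.57 in CD-1 and 2.66 ± 0.57 in C3H phenobarbital livers (SD, n = 7, 4 and 3). Its control means were 0.62 ± 0.32 in CD-1, -0.13 ± 0.28 in hCAR/hPXR and -0.33 ± 0.86 in C3H livers. The phenobarbital groups overlapped with each other and lay apart from all controls, and on this scale CD-1 controls lay above all hCAR/hPXR controls. Levels between strains depend on the scaling. Before it, the processed signal of Gadd45b was 79.5 to 95.9 in CD-1 controls and 148 to 254 in hCAR/hPXR controls. The 75th percentile of those arrays was 37.8 to 71.5 in CD-1 and 180 to 267 in hCAR/hPXR controls. Gadd45g was highest in hCAR/hPXR controls at 6.11 ± 0.58 and lowest in CD-1 phenobarbital livers at 0.64 ± 0.91. Between these lay C3H phenobarbital (5.80 ± 0.16), hCAR/hPXR phenobarbital (4.78 ± 1.22), C3H control (3.52 ± 0.32) and CD-1 control (2.92 ± 1.31), and each group overlapped with the next. On this scale the C3H phenobarbital livers thus lay within the range of untreated hCAR/hPXR livers. Their processed Gadd45g signals, 5082 to 5865, lay below those of the untreated hCAR/hPXR livers, 6046 to 19814. Gadd45a followed the order C3H phenobarbital (1.19 ± 0.22), CD-1 phenobarbital (0.79 ± 0.62), hCAR/hPXR phenobarbital (0.78 ± 0.72), CD-1 control (0.04 ± 0.72), C3H control (-0.78 ± 1.48) and hCAR/hPXR control (-1.04 ± 0.79), with overlap between all neighbours.

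Genes known to work with or above the GADD45 proteins were counted in 5 lists of 71 genes in all, with the probe of highest mean for each gene. The counts are to be read against the shares of all probes called, 1.81% higher and 6.07% lower in CD-1, 33.9% higher and 22.1% lower in hCAR/hPXR and 7.21% higher and 6.87% lower in C3H mice. In the MAP kinase cascade that MAP3K4 feeds, 2 of 10 tested genes fell and none was called higher in CD-1 mice. Mapk11, a p38 kinase, fell by 2.01 (limma adjusted p = 0.000747), and Map2k6, a kinase that activates p38, was at least 2.89-fold lower, since no phenobarbital array had it above background (adjusted p = 0.0126). In C3H mice 0 of 10 were called by limma, and 0 had an unadjusted p below 0.05. The hCAR/hPXR comparison had 6 of 11 higher and 2 lower, among them Mapk8, which encodes JNK1 (0.50, with other probes at 0.29 and 0.00029, the last with limma adjusted p = 0.999), Map2k7, the JNK kinase bound by GADD45B (0.61), Map3k4, the direct GADD45 partner (0.54), and Mapk11 (-0.58), while the other that fell was Map2k4, a JNK kinase (-0.24). The median change was -0.37 in CD-1, 0.24 in hCAR/hPXR and -0.15 in C3H mice, beside -0.01, 0.13 and -0.05 over all probes tested.

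Of the cell cycle and repair proteins that GADD45 proteins bind, none of 7 was called by limma in CD-1 mice, and 1 had an unadjusted p below 0.05. Cdk1 and Ccnb1, by their probes of highest mean, were not tested there because too few arrays were above background. This Ccnb1 probe averaged -1.80 with phenobarbital (3 arrays above background) and -3.39 in controls (0 arrays), without overlap. The Cdk1 probe was above background on no CD-1 array, and another gave 0.13 (limma adjusted p = 0.839). In C3H mice 3 of 9 rose: Cdk1, the mitotic kinase that GADD45 proteins restrain, was at least 10.2-fold higher (limma adjusted p = 0.00559), since no control array had it above background. Ccnb1, its cyclin partner, rose by 4.56 (adjusted p = 0.0067), with 1 of 3 control arrays above background, and Pcna, the replication clamp, rose by 0.90 (adjusted p = 0.0264). The hCAR/hPXR mice had 6 of 9 higher, led by Ccnb1 (2.66), Pcna (0.64), Cdk1 (1.63) and Gadd45gip1, which encodes a GADD45G-binding mitochondrial protein (0.53). Other probes of Ccnb1 were higher too, one at 3.14 in C3H mice (limma adjusted p = 0.00651) and a different one at 2.21 in hCAR/hPXR mice (adjusted p = 2.52e-05), while the one that gave 3.14 in C3H mice gave 0.94 in CD-1 mice (adjusted p = 0.255). In C3H mice, 2 genes of this list were called higher without control animal 1, 2 or 3 or phenobarbital animal 2 or 3, and 3 without phenobarbital animal 1.

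Of 13 tested upstream regulators, 1 fell in CD-1 mice: Ppara, the fatty acid-sensing receptor (-1.75). The C3H comparison had 2 of 13 higher, Ddit3, the stress factor CHOP (2.46), and Egr1, an immediate-early zinc finger factor (2.54), and 1 was called without control animal 1 or 2 or phenobarbital animal 2 or 3. In hCAR/hPXR mice 5 of 13 rose, including Tgfb1 (0.57), Nfkb1 (0.51, with another probe at 0.13 and limma adjusted p = 0.703) and Rela (0.37), the last 2 encoding NF-kB subunits, and 2 fell, Ppara (-0.31) and the mouse Nr1i3 probe. Nr1i3 fell by 0.99 (limma adjusted p = 2.29e-05), and was well above background on all 14 hCAR/hPXR arrays. Its mean there was -2.01 with phenobarbital and -1.02 in controls, beside control means of 1.48 in CD-1 and 3.23 in C3H mice. The second probe was not tested in hCAR/hPXR mice, and what the mouse probe reads in a line known as humanised for CAR is not known here. Nr1i3 gave -0.44 in CD-1 mice (adjusted p = 0.285, the second probe -1.25 with adjusted p = 0.0284) and -0.24 in C3H mice (adjusted p = 0.419).

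Among p53 targets, none of 10 was called in CD-1 mice by limma, and 2 had an unadjusted p below 0.05. The count was 9 of 15 higher and 1 lower in hCAR/hPXR mice, led by Phlda3, an AKT repressor (2.13), Bbc3, the pro-apoptotic PUMA (0.83), Aen, an exonuclease (0.74), and Ccng1, cyclin G1 (0.68), with Sesn2, a sestrin, the 1 lower (-0.27). In C3H mice 3 of 14 rose and 1 fell: Btg2, an antiproliferative factor (3.01), Phlda3 (1.90) and Mdm2, the p53 ubiquitin ligase (0.59), rose, and Perp, a desmosome protein, gave -0.64. The number called higher in C3H mice was 1 without control animal 1, 2 or 3 or phenobarbital animal 2, 2 without phenobarbital animal 3 and 5 without phenobarbital animal 1. Btg2, Egr1 and Cdkn1a each stand in 2 of the lists.

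The immediate-early and stress genes encode short-lived factors that cells switch on within minutes of a stimulus. In C3H mice, 15 of 20 rose and none fell, with a median change of 1.76 beside -0.05 over all probes and 7.21% of all probes called higher. Myc rose by 2.84, Jun by 3.14 and Btg2 by 3.01, and Fos, whose control arrays were all below background, was at least 37.0-fold higher (limma adjusted p = 0.00239). The number called higher was 6 without control animal 1, 7 without control animal 3, 5 without phenobarbital animal 2, 10 without control animal 2 or phenobarbital animal 3, and 15 without phenobarbital animal 1, and it was 5 with no filter on dim probes. In CD-1 mice 1 of 13 was called, Dusp1, a MAP kinase phosphatase, at least 5.42-fold lower (limma adjusted p = 0.00114). In hCAR/hPXR mice 5 of 19 rose, among them Klf6 (0.69), Myc (0.99), Atf3 (0.85) and Jund (0.36), and 4 fell, namely Dusp1 (-0.90), Cebpd (-0.69), Zfp36 (-1.27) and Fosb (-0.75). With slide as a block, the p53 target Phlda3, which was higher, was the 1 called member of the 5 lists in hCAR/hPXR mice.

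**Figure D4:**
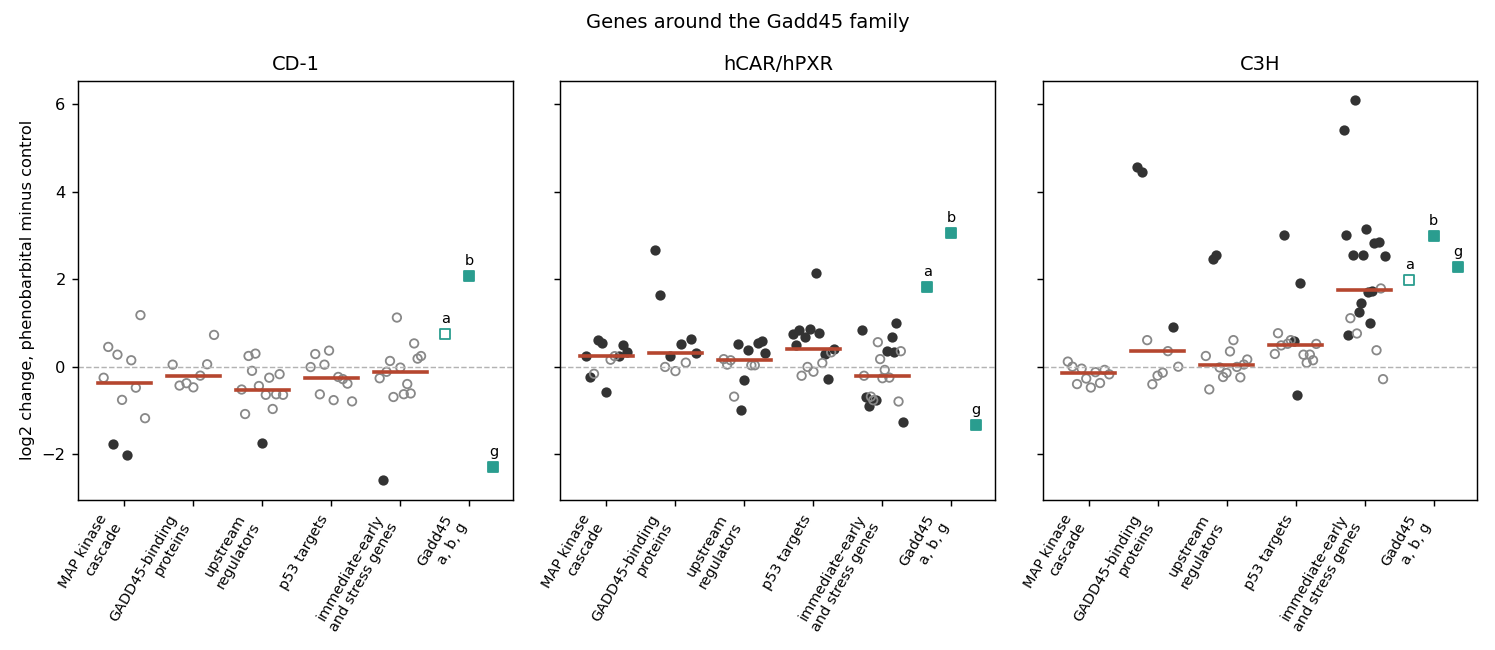
Each circle is the log2 change, phenobarbital minus control, of 1 gene of the 5 lists in 1 strain, filled where the limma adjusted p was below 0.05, with red lines at list medians and squares for Gadd45a, Gadd45b and Gadd45g. The immediate-early genes lie high in C3H mice, with a median of 1.76, while the Gadd45b changes in CD-1 and hCAR/hPXR mice, 2.06 and 3.05, exceed those of all list genes drawn there.

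Within the hCAR/hPXR groups, the only ones with over 5 animals, no relation between members over animals passed among the 6 tested. The strongest was Gadd45a with Gadd45g in phenobarbital animals (r = 0.76, rho = 0.54, exact permutation p = 0.0562, adjusted p = 0.295; rho adjusted p = 0.471), which gave r = 0.87 without the 2 animals farthest from the median. In controls, Gadd45a with Gadd45b gave r = 0.66 (rho = 0.54, exact permutation p = 0.0984, adjusted p = 0.295) and 0.30 without the 2 farthest.

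To find genes with a like pattern, the control mean of the strain was subtracted from each value and the root mean square difference over 28 animals was taken for 9852 candidate genes. Nearest to Gadd45b was Gstm2, a glutathione S-transferase, at 0.47 log2 units, followed by Gstm4, another glutathione S-transferase (0.61), and Kif20b, a mitotic kinesin (0.72), while the median candidate was at 1.99. Gstm2 changed by 2.13 in CD-1, 2.68 in hCAR/hPXR and 3.08 in C3H mice, beside 2.06, 3.05 and 2.99 for Gadd45b. Gadd45a took place 50 in this order and Gadd45g place 9736. Nearest to Gadd45a were Icosl, a T cell costimulatory ligand (0.66), Nfe2, a blood cell transcription factor (0.67), and Chaf1a, a chromatin assembly factor (0.69), with the median candidate at 1.35. Nearest to Gadd45g were Dusp1 (0.96), Wfdc3 (0.97) and Slc1a2, a glutamate transporter (1.0), with the median candidate at 1.57. Dusp1 was lower in CD-1 and hCAR/hPXR mice and gave 1.11 in C3H mice, though the C3H value did not pass the test. These are the signs of Gadd45g, a likeness that follows from the choice of Dusp1 by nearness over the same values. The 28 animals share slides and groups, so these distances are descriptions.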

How the data were processed

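Liver RNA of 28 mice was measured on 1 array per animal. The intensity values were made with Agilent Feature Extraction 10.7.3.1, per the file headers, and its processed signal is corrected for background within an array and not scaled between arrays. The deposited value table holds log2 values that, for nearly all of the 55681 matched probes, equal the log2 processed signal minus a constant within 0.001. The array's log2 75th percentile minus that constant was -0.0233 to 0.0102, so its scale is settled. The deposited table served as an alternative, but it nearly repeats the main scaling, so its likeness to the main results was fixed in advance. Groups came from the labels and slides from the file headers.

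Spots marked as outliers (109 to 430 of 62976 per array) were dropped, spots of a probe were averaged, and each array's 75th percentile was subtracted from the log2 processed signal. Genes were named by matching RefSeq accessions, without version, to the GRCm38.p6 annotation, which named 26582 probes. Probes well above background on every array of 1 or more of the groups compared were tested with limma 3.58.1 in R 4.3.3, two-sided, with Benjamini-Hochberg adjustment over all tested probes, within each strain and, for differences of the effect, over all 28 arrays. A group without any array above background had its value raised on each array to the lowest signal marked above background there, which gives a lower bound of the fold. Exact permutation tests used SciPy 1.17.1. The script was tested on simulated data.

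The members, the 5 lists, the 7 marker lists and the rule for named genes were chosen with earlier results of these data known. The rule names the 3 members, Cyp2b10 and Nr1i3, up to 4 called genes of each list with the smallest adjusted p, and the 3 genes nearest in pattern; Map2k4, Sesn2, Cebpd, Zfp36 and Fosb were named after their values were seen. The labels number the animals as biological replicates, and the number of arrays limits the precision.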

Additional observations from a re-analysis of the deposited data

Results flagged for a closer look

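Gadd45b in phenobarbital animal 1 of the hCAR/hPXR group, at 2.33, stood apart from the other 6 animals of its group by a gap of 0.571 of the group's whole range, just above the limit for 7 animals. It is the animal that shared a slide with the controls. Of 12 sets of 4 or more animals examined in this way this was the single one past its limit. Chance alone puts about 1 in 20 of such sets past the limit, so 1 of 12 can arise by chance.

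The phenobarbital effect on Gadd45g differed between experiments by 4.56 on the log2 scale for C3H minus CD-1 mice (limma adjusted p = 0.00206) and by 3.60 for C3H minus hCAR/hPXR mice (limma adjusted p = 0.00709). All 3 C3H phenobarbital animals lay above their controls, and 3 of 4 CD-1 and 3 of 7 hCAR/hPXR phenobarbital animals lay below theirs. Strain, dose, duration, the carcinogen and the slide cannot be told apart in these differences. Phenobarbital and control animals lay on different slides in CD-1 mice and, but for phenobarbital animal 1, in hCAR/hPXR mice. In C3H mice they shared a slide, and the labels do not say whether that tissue was tumour or surrounding liver.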

How the results depend on the processing

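Changes of the members within strains kept their sign under all settings run, while some calls changed. Gadd45b passed in CD-1 and hCAR/hPXR mice under each of them, as Gadd45g did in C3H mice, though with the slide block and on the control slide alone the hCAR/hPXR contrast rests on 1 phenobarbital animal, so those settings say nothing of stability. Leaving out 1 animal at a time gave 0.39 to 1.01 for Gadd45a in CD-1, 1.65 to 2.07 in hCAR/hPXR and 1.21 to 2.70 in C3H mice, 2.61 to 3.45 for Gadd45b in C3H mice, -2.75 to -1.82 for Gadd45g in CD-1 mice and -1.53 to -1.01 for Gadd45g in hCAR/hPXR mice. Beside the calls given with the results, the Gadd45g call was lost in CD-1 mice with the percentile taken over probes detected on all arrays (-2.02, limma adjusted p = 0.0645) and without a filter (-2.28, adjusted p = 0.0786), and in hCAR/hPXR mice without a filter (-1.33, adjusted p = 0.0539). Gadd45a in C3H mice passed with normexp (1.14) and with all 28 arrays (1.97), Gadd45b there lost its call without a filter (2.99), and Gadd45a in hCAR/hPXR mice lost it with the slide block and on the control slide alone (0.84 each). The replicate numbers did not pair the animals (r of same-numbered animals -0.44 to 0.25). With the replicate block, Gadd45g in hCAR/hPXR mice gave -1.33 (adjusted p = 0.0587) and lost its call, and no other call of a member changed. Reversed differences between strains were those of Gadd45a for C3H minus hCAR/hPXR (-0.041 with quantile normalization, -0.21 with normexp, -0.60 to 0.88 leaving out 1 animal), Gadd45b for C3H minus CD-1 (-0.63 with quantile normalization; 0.54 to 1.39), Gadd45b for C3H minus hCAR/hPXR (0.13 with the detected-probe percentile, 0.53 with a slide block added after seeing the data; -0.45 to 0.40) and Gadd45b for hCAR/hPXR minus CD-1 (-0.39 with quantile normalization; 0.75 to 1.19), none of which had passed. The last passed with normexp (1.31) and among probes above background in every group (0.99, adjusted p = 0.0316). Correlations in hCAR/hPXR phenobarbital animals turned to -0.80 for Gadd45a with Gadd45b and to -0.70 for Gadd45b with Gadd45g without the 2 farthest animals. Within C3H animals, Gadd45b minus Gadd45g turned to -0.16 with normexp and Gadd45a minus Gadd45g ranged from -1.20 to 0.59 leaving out 1 animal and turned positive without control animal 3. Counts of called probes were 2536 in CD-1 mice (5837 with normexp, 8168 with all 28 arrays, 1412 with the replicate block, 1227 to 2795 leaving out 1 animal), 14518 in hCAR/hPXR mice (507 with the slide block, 262 on the control slide) and 3262 in C3H mice (655 without a filter, 1873 with the replicate block, 712 to 6470). They were 5052 for C3H minus CD-1 (2579 among probes above background in every group, 3209 to 6655) and 2437 for C3H minus hCAR/hPXR (983 with quantile normalization, 1486 without a filter, 1585 above background in every group, 658 with the slide block, 1371 to 3364). The share called higher moved from 23.0% to 33.5% in CD-1 mice with quantile normalization and from 60.6% to 36.8% in hCAR/hPXR mice with the detected-probe percentile. For differences it moved from 68.5% to 58.4% (quantile) or 31.4% (detected-probe percentile) for hCAR/hPXR minus CD-1, from 63.1% to 47.7% (detected-probe percentile) for C3H minus CD-1, and from 42.9% to 61.1% or 65.9% with these settings for C3H minus hCAR/hPXR. The detected-probe percentile put the median of all probes at 0.25 in CD-1 mice. Except for the settings that leave out animals or slides or change the filter, the cause was not tested.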
